A study of Mus musculus with 20 samples.

Results

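The cell cycle and DNA replication genes described here are 42 of the 45777 genes listed in the table, taken by gene symbol. They comprise 22 genes of mitosis, 19 genes of S phase and the G1 cyclin Ccnd1, and all 42 were above 0 TPM (transcript abundance scaled for transcript length and library total) in every library. The S-phase and mitotic genes are reported apart. RNA was sequenced from 1 uterine horn of each of 20 female B6D2F1 mice aged 8 to 12 weeks, collected at 18:00 on day 3.5 of pregnancy, with 5 mice per group. The control group was pregnant and received neither drug nor cells. The IF (implantation failure) group received 3 mg/kg of RU486, an antagonist of the progesterone and glucocorticoid receptors, on the morning of day 3.5. The PBMC group received the same RU486 and, on day 1.5, 50000 peripheral blood mononuclear cells from non-pregnant mice in each uterine horn. For the PBMC-hCG group these cells had been cultured with 5 IU/mL of human chorionic gonadotropin (hCG). Mice given medium without cells were not analysed here, so the injection and the cells cannot be told apart. The horn holds epithelium, stroma, muscle, vessels and blood together, and a drop in a transcript can stem from fewer cycling cells or from less RNA per cell, which cannot be told apart in bulk RNA.

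A cell that divides first licenses its origins of replication by loading the MCM helicase, then copies its DNA in S phase, and then builds a spindle and segregates its chromosomes in mitosis. In the uterus of early mouse pregnancy, estrogen drives the epithelium to divide, and progesterone then stops epithelial division and brings on division of the stroma before implantation. D-type and E-type cyclins with their kinases release the E2F transcription factors, which switch on genes of licensing and replication. Many genes of mitosis are transcribed later in the cycle, through a promoter element named the CHR (cell cycle genes homology region), often with CCAAT boxes beside it.

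The letters of these elements were searched for in the promoters, to show which of them each class holds. RefSeq promoter windows on GRCm38.p6, from 250 bases before to 50 bases after the transcription start, were held for 33 of the 42 genes and were read on both strands. E2F-type letters were taken as TTTCCCGC, TTTGGCGC, TTTCGCGC or TTTGCCGC, the CHR as TTTGAA, and the CCAAT box by its own letters. Of 15 S-phase promoters 6 held E2F-type letters (40.0%), as did 1 of 18 mitotic promoters (5.56%, Cdk1) and 2.32% of all 27025 promoters. The 6 were those of Mcm3, Mcm5, Mcm6, Mcm7, Cdc6 and Cdt1. For the CHR the order was the opposite, with 13 of 18 mitotic promoters (72.2%), 2 of 15 S-phase promoters (13.3%, Mcm2 and Cdc45) and 18.1% of all promoters. CCAAT boxes were in 16 mitotic (88.9%), 10 S-phase (66.7%) and 37.9% of all promoters. These matches describe letters only. The 250 bases before the start of 2 helicase genes and 2 mitotic genes are printed 5′ to 3′ on the strand of the gene, with E2F-type letters in capitals in Mcm5 (chr8:75109259-75109508, plus strand) and Mcm6 (chr1:128359706-128359955, minus strand), and CHR letters in capitals in Mki67 (chr7:135716380-135716629, minus strand) and Cdk1 (chr10:69352913-69353162, minus strand). Where 2 matches on opposite strands overlap, as they do in Mcm5 and Mcm6, the capitals run together.
Mcm5: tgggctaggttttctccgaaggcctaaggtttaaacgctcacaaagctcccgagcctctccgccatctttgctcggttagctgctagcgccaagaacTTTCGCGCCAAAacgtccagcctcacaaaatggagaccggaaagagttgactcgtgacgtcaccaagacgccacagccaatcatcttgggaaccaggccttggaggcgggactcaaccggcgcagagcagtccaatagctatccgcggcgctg
Mcm6: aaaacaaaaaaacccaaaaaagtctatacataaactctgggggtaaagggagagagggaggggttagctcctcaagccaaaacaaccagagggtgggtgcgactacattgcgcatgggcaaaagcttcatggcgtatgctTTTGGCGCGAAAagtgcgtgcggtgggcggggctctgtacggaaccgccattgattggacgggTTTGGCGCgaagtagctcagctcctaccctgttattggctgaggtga
Mki67: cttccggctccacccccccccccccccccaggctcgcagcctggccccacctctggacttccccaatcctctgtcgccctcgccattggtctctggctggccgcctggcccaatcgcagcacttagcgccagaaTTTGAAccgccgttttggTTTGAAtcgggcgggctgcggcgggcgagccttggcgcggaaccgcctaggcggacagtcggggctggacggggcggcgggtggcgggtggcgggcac
Cdk1: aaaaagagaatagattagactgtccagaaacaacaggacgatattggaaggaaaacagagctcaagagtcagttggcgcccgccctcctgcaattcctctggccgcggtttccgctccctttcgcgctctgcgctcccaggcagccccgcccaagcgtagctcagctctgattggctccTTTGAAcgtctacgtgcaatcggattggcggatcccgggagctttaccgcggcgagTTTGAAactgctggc
In Mcm5 the paired matches began 153 and 149 bases before the start, and in Mcm6 they began at 110 and 106 with a further match at 47. The CHR letters began 116 and 98 bases before the start of Mki67, and 71 and 15 bases before that of Cdk1.

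Among the libraries, that of control replicate 2 stood apart, and it enters every comparison with control. All 22 mitotic genes were at their lowest of the 20 mice there. The mean of the other 4 controls was 5.79-fold (Cdk1) to 22.8-fold (Bub1) above it, with a median of 11.5-fold. For the 19 S-phase genes the same fold ran from 1.52 (Mcm7) to 20.6 (Cdc6), with a median of 3.98, and 16 of them were at their lowest of all mice in this library. Control replicate 5 was the opposite, the highest of all mice for 16 mitotic and all 19 S-phase genes. A list of 7 adipose genes, written after the values were seen, summed to 894 TPM in control replicate 2 and to 7.49 to 47.7 in the other 4 controls. The sums were 5.12 to 182 in the IF, 5.47 to 70.3 in the PBMC and 5.48 to 21.6 in the PBMC-hCG mice. Its stromal markers (5579 TPM in sum, against 8903 to 9480 in the other controls) and endothelial markers (315.9 against 338.6 to 424.7) were the lowest of the 20 mice, and its epithelial markers were the highest of the controls (1388 against 779 to 1078). For the adipose genes the next highest, IF replicate 5 with 182, had 18.7 TPM of Mki67, among the highest levels. Whether adipose or the other tissues have a part in the low cell cycle levels of control replicate 2 was not tested. Median correlation of log2 values with mice of the same group was 0.963 for control replicate 2 and 0.980 to 0.990 for the others. Counts of called genes among the 42 against control are given with and without it, and its omission was chosen after its values had been seen.

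**Figure D1:**
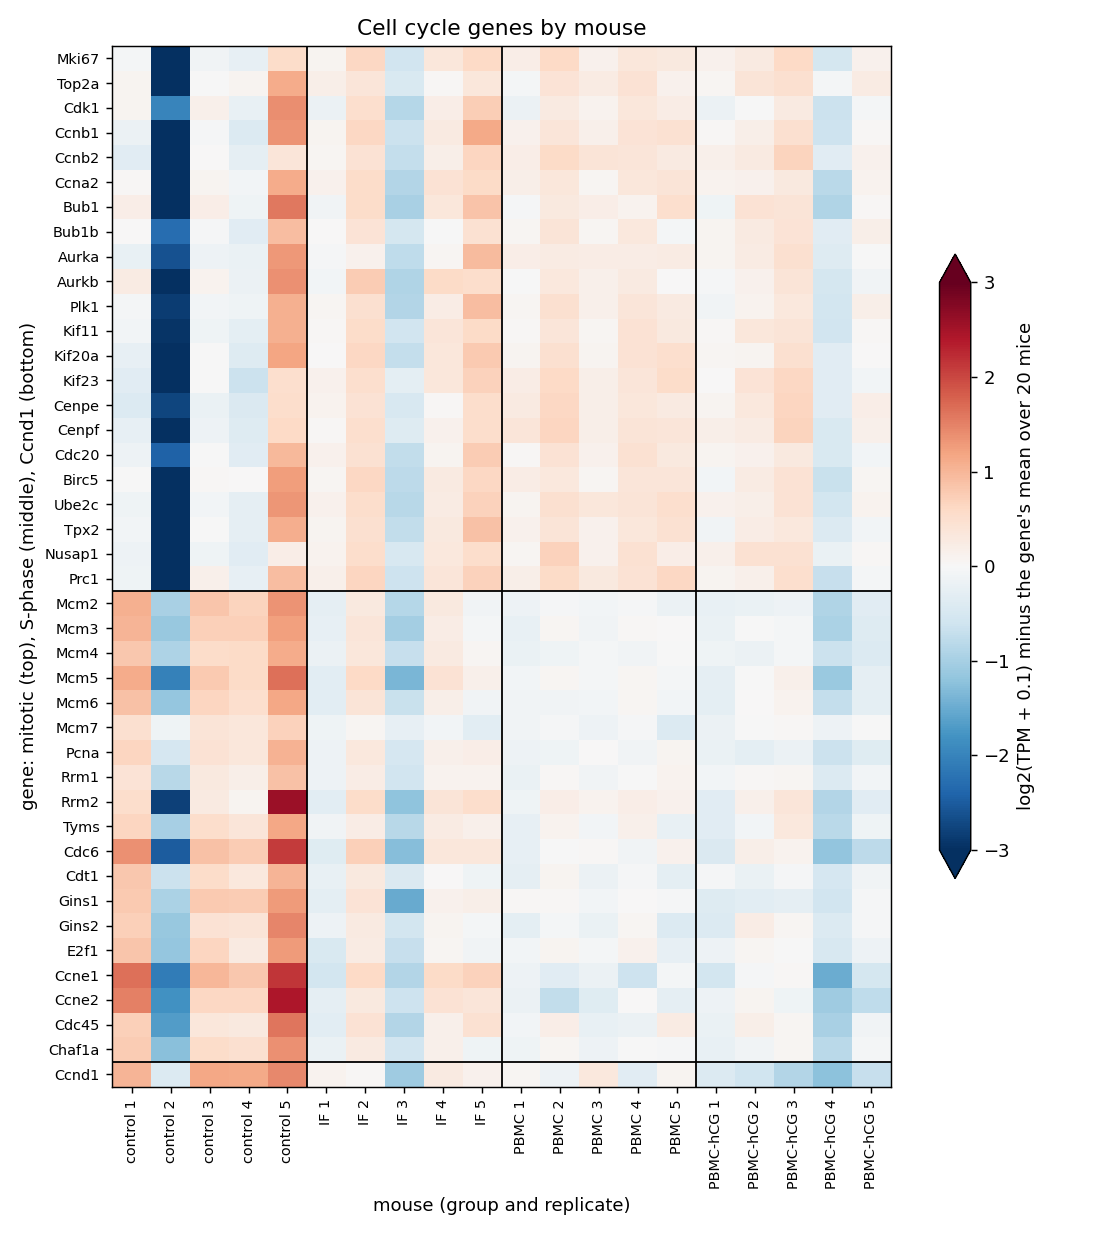
Level of the 42 genes (rows) in each of the 20 mice (columns), as log2(TPM + 0.1) minus the gene's mean over all mice, red above and blue below that mean, with colours saturated at 3 in either direction. Control replicate 2 is the blue column across nearly all rows, while in most S-phase rows the other 4 controls are redder than the mice that received RU486.

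Mitotic genes were not called different in any comparison. Levels are given in TPM, which is scaled for transcript length, and mice are listed in the order of their replicate numbers. Mki67, the source of the proliferation antigen Ki-67, was at 11.8, 1.14, 11.4, 10.4 and 18.2 TPM in the control, 13.1, 19.2, 8.33, 15.7 and 18.7 in the IF, 14.1, 18.9, 13.4, 15.8 and 15.2 in the PBMC and 13.6, 14.8, 18.7, 8.59 and 13.6 in the PBMC-hCG mice. The groups overlapped, and control replicate 2 lay below all the rest. Cdk1, the kinase that drives entry into mitosis, was at 11.01, 2.53, 11.4, 8.81 and 27.3 TPM in the control, 9.19, 14.6, 5.68, 11.8 and 17.2 in the IF, 9.16, 12.6, 11.1, 13.1 and 12.1 in the PBMC and 9.16, 10.3, 12.4, 6.58 and 9.96 in the PBMC-hCG mice. Its control mice held both the lowest and the highest value of the 20. Ccnb1, the cyclin partner of Cdk1, was at 11.5, 0.847, 12.8, 9.86 and 33.6 TPM in the control, 13.8, 20.1, 8.30, 15.7 and 28.9 in the IF, 14.4, 16.8, 14.6, 17.4 and 17.9 in the PBMC and 13.5, 14.7, 18.4, 8.44 and 13.4 in the PBMC-hCG mice. It showed the same arrangement, with all 3 RU486 groups inside the range of the controls.

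Against control, in limma's fit over the 18706 genes tested, Mki67 was at a log2 fold change of 0.86, SE 0.490, adjusted p = 0.234 in the IF group. Cdk1 had a log2 fold change of 0.20, SE 0.416, adjusted p = 0.786, and Ccnb1 a log2 fold change of 0.90, SE 0.604, adjusted p = 0.319. Of the 22 mitotic genes 0 had an adjusted p under 0.05 in this comparison, and 2 had an unadjusted p under 0.05. Across all genes 21.9% were called. The median of the mitotic genes was 0.67, against 0.02 over all genes, and it was 0.02 without control replicate 2. Without that mouse 0 mitotic genes were called, and 0 had an unadjusted p under 0.05. Intervals then lay within 2-fold either way for 21 of the 22, and with all mice for 0 of the 22.

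The other mitotic genes are given more briefly. Topoisomerase Top2a, which untangles sister chromosomes, was at 42.9 ± 30.1 TPM in control and 43.6 ± 9.11 in IF mice (SD, n = 5 each). Ube2c, which feeds the anaphase-promoting complex, was at 38.97 ± 32.7 and 43.7 ± 15.04, and Cdc20, which activates that complex, was at 22.6 ± 14.99 and 27.4 ± 9.53. With all mice, log2 fold changes of IF against control ran from 0.20 (Cdk1) to 1.06 (Kif23, a kinesin of cytokinesis). All 22 were above 0, and without control replicate 2 12 of 22 were. Mitotic cyclins were at 0.77 for Ccnb2 and 0.54 for Ccna2. The checkpoint kinases were at 0.45 for Bub1 and 0.41 for Bub1b, and the mitotic kinases at 0.45 for Aurka, 0.47 for Aurkb and 0.57 for Plk1. Motors and kinetochore proteins gave 0.67 for Kif11, 0.80 for Kif20a, 0.78 for Cenpe and 0.86 for Cenpf. The spindle genes Tpx2, Nusap1 and Prc1 were at 0.68, 0.88 and 0.90, and Birc5, a subunit of the chromosomal passenger complex, was at 0.57. None of these differences passed the test.

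**Figure D2:**
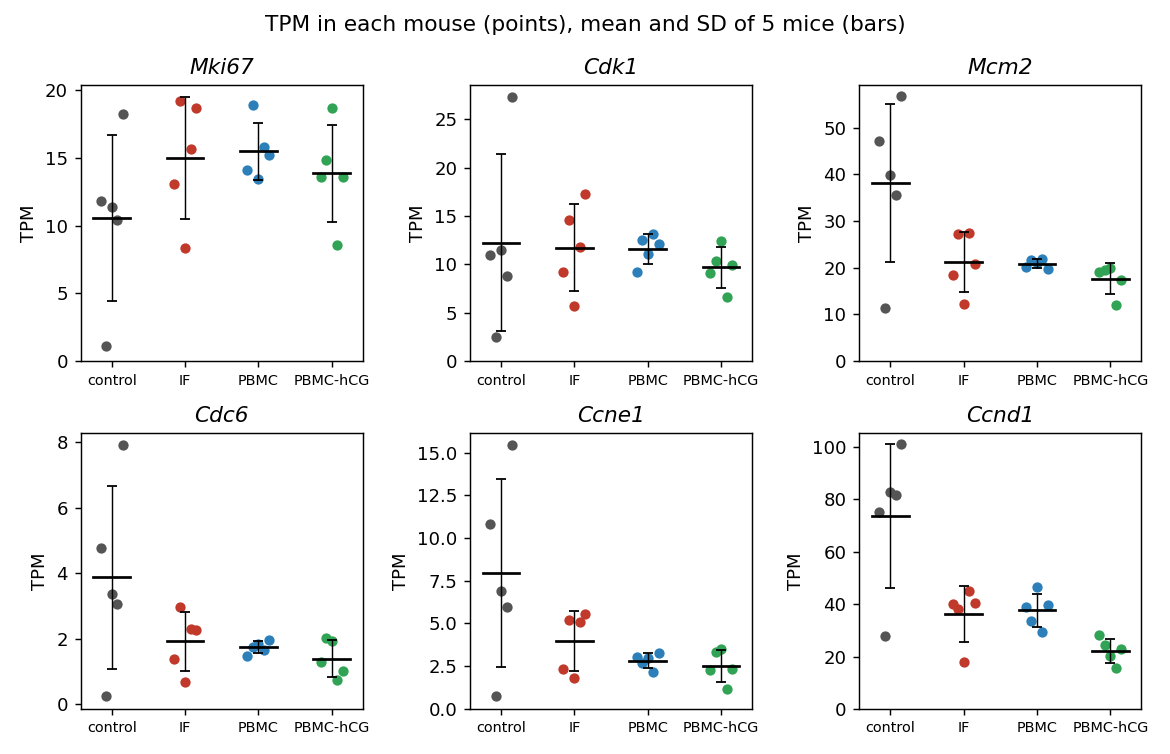
TPM (vertical axis, from 0) of 6 genes in each mouse of the 4 groups, with points for mice and bars for the mean and SD of 5 mice. For Cdk1 the RU486 mice lie inside the control range and for Mki67 they reach 19.2 against 18.2 in control, while for Mcm2 and Ccnd1 4 of the 5 control mice lie above all 15 mice given RU486.

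Without control replicate 2, 17 or 18 of the 19 S-phase genes were called lower in each RU486 group than in control. The share of all genes called lower was then 10.6% to 17.1%. With that mouse 1 to 3 were called, all of them lower. Of all 18706 genes, 1253 to 2169 were then called lower, and 19.5% to 31.8% in either direction. Leaving out control replicate 2 alone removes the control with the lowest levels and keeps replicate 5, which had the highest. With control replicates 2 and 5 both left out, fewer were called in each comparison, as given in the closing section. The helicase subunit Mcm2 was at 47.1, 11.3, 39.9, 35.6 and 56.9 TPM in the control, 18.4, 27.2, 12.2, 27.5 and 20.9 in the IF, 20.2, 21.7, 21.1, 21.8 and 19.7 in the PBMC and 19.2, 19.5, 20.003, 11.9 and 17.5 in the PBMC-hCG mice. Apart from control replicate 2, each control mouse was above all 15 mice that received RU486. Mcm5, a further subunit of the same ring, was at 44.4, 4.94, 35.7, 30.8 and 64.6 TPM in the control, 16.6, 31.05, 7.91, 27.8 and 22.7 in the IF, 19.5, 21.4, 19.7, 21.4 and 19.8 in the PBMC and 16.9, 20.3, 22.8, 9.47 and 16.9 in the PBMC-hCG mice. Here IF replicate 2 reached the level of control replicate 4, so the groups overlapped at their edges. Mcm7 was at 69.3, 45.6, 65.1, 62.996 and 80.3 TPM in the control, 45.2, 52.2, 42.03, 47.3 and 40.03 in the IF, 45.999, 48.6, 45.1, 48.7 and 37.5 in the PBMC and 44.4, 49.6, 50.7, 45.1 and 49.5 in the PBMC-hCG mice. Its level in control replicate 2 lay within the range of the IF mice, and that gene was the least reduced there of the 19.

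The loading factors Cdc6 and Cdt1 place the helicase on origins. Cdc6 was at 4.76, 0.232, 3.38, 3.06 and 7.92 TPM in the control, 1.37, 2.96, 0.675, 2.28 and 2.27 in the IF, 1.47, 1.75, 1.82, 1.65 and 1.97 in the PBMC and 1.28, 2.01, 1.92, 0.728 and 0.992 in the PBMC-hCG mice. Cdt1 was at 21.99, 7.91, 18.3, 15.7 and 25.5 TPM in the control, 10.7, 15.3, 9.16, 12.6 and 11.4 in the IF, 10.3, 13.3, 11.1, 12.1 and 10.1 in the PBMC and 12.2, 10.9, 12.1, 8.73 and 11.5 in the PBMC-hCG mice. Both had 4 control mice above every mouse given RU486. Cdc45, which joins the helicase to make it active, was at 11.8, 2.18, 9.20, 8.89 and 22.2 TPM in the control, 5.78, 9.72, 3.84, 8.07 and 9.88 in the IF, 6.75, 8.31, 6.21, 6.32 and 8.53 in the PBMC and 6.24, 8.09, 7.46, 3.62 and 6.72 in the PBMC-hCG mice. Its IF values ran up into the control range. Pcna, the sliding clamp of DNA polymerases and the most abundant of the 42 genes, was at 189, 85.01, 161, 151 and 248 TPM in the control, 108, 149, 84.9, 132 and 138 in the IF, 107, 109, 122, 111 and 128 in the PBMC and 105, 97.9, 106, 76.7 and 93.6 in the PBMC-hCG mice. Except for control replicate 2, controls were all above the IF mice, by a narrow margin of 151 against 149 TPM at the closest.

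E2F and cyclin E stand above the other S-phase genes in the pathway. E2f1, the transcription factor that drives many S-phase genes, was at 11.2, 2.77, 9.87, 7.65 and 15.5 TPM in the control, 4.53, 7.49, 3.86, 6.56 and 5.79 in the IF, 5.93, 6.65, 6.06, 6.85 and 5.26 in the PBMC and 5.62, 6.54, 6.23, 4.49 and 5.62 in the PBMC-hCG mice. With control replicate 2 aside, its lowest control value was just above the highest IF value. Ccne1, the cyclin that activates Cdk2 at the start of S phase, was at 10.8, 0.716, 6.89, 5.97 and 15.4 TPM in the control, 2.30, 5.16, 1.78, 5.07 and 5.52 in the IF, 3.03, 2.66, 2.98, 2.16 and 3.23 in the PBMC and 2.27, 3.33, 3.49, 1.14 and 2.32 in the PBMC-hCG mice. IF replicates 2, 4 and 5 were at 5.07 TPM or more and replicates 1 and 3 at 2.30 or less, while all PBMC and PBMC-hCG mice were below 3.50 TPM. The other E-type cyclin gene, Ccne2, was at 5.62 ± 4.79 TPM in control, 2.53 ± 0.761 in IF, 1.92 ± 0.366 in PBMC and 1.84 ± 0.602 in PBMC-hCG mice (SD, n = 5 each).

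With all 20 mice, 1 of the 19 S-phase genes was called in IF against control, beside 21.9% of all genes, and it was Mcm7 (log2 fold change of -0.49, SE 0.114, adjusted p = 0.00443). In PBMC against control 1 of 19 was called, again Mcm7 (log2 fold change of -0.50, SE 0.114, adjusted p = 0.00443), beside 19.5% of all genes. In PBMC-hCG against control 3 of 19 were called, beside 31.8% of all genes. They were Mcm2 (log2 fold change of -0.95, SE 0.315, adjusted p = 0.0271), Mcm7 (log2 fold change of -0.41, SE 0.114, adjusted p = 0.0105) and Pcna (log2 fold change of -0.73, SE 0.203, adjusted p = 0.011). All were lower. Fold changes of all 19 genes were below 0 in each of the 3 comparisons, with medians of -0.51, -0.50 and -0.64, against 0.02, 0.05 and 0.08 over all genes. No mitotic gene was called in the latter 2 comparisons either, with 5 and 1 of 22 at an unadjusted p under 0.05. The 3 comparisons share the control mice.

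Without control replicate 2, 17 of the 19 S-phase genes were called lower in IF against control, beside 12.4% of all genes called lower. In PBMC against control 17 were lower, beside 10.6% of all genes, and in PBMC-hCG against control 18 were lower, beside 17.1%. Medians were then -0.89, -0.86 and -1.03, against 0.01, 0.04 and 0.07 over all genes, and those of the mitotic genes were 0.02, 0.11 and -0.11. The groups did not overlap, with the RU486 mice lower, for 15 of the 19 genes in IF, 18 in PBMC and 18 in PBMC-hCG against control. The shares over all genes were 9.82%, 9.74% and 14.3%. For the mitotic genes this count was 0 in all 3 comparisons. With all mice, the 16 S-phase genes at their lowest in control replicate 2 could not lie apart in this way. Of all 18706 genes, 798 in IF, 763 in PBMC and 948 in PBMC-hCG against control lay apart and lower with all mice.

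Without that mouse, the helicase genes fell in IF against control by 0.61 (Mcm7) to 1.13 (Mcm5) on the log2 scale. Mcm2 had a log2 fold change of -1.11, SE 0.202, adjusted p = 0.000537, and Mcm5 a log2 fold change of -1.13, SE 0.322, adjusted p = 0.014. Mcm3, Mcm4 and Mcm6 were at -1.06, -0.80 and -0.91. The largest falls were those of Cdc6 (log2 fold change of -1.32, SE 0.364, adjusted p = 0.0114) and Ccne1 (log2 fold change of -1.32, SE 0.363, adjusted p = 0.0117), followed by Ccne2 at -1.26. Cdt1 (log2 fold change of -0.77, SE 0.152, adjusted p = 0.00104), E2f1 (log2 fold change of -0.95, SE 0.195, adjusted p = 0.00147) and Pcna (log2 fold change of -0.61, SE 0.154, adjusted p = 0.00629) also fell. Gins1 and Gins2, parts of the active helicase, were at -1.12 and -0.83. Chaf1a, which packs new DNA into chromatin, was at -0.89. The nucleotide genes Tyms and Rrm1 were at -0.74 and -0.50. Not called were Cdc45 (log2 fold change of -0.77, SE 0.297, adjusted p = 0.0616) and Rrm2, a subunit of ribonucleotide reductase (log2 fold change of -0.87, SE 0.427, adjusted p = 0.145). Rrm2 was at 94.5 TPM in control replicate 5, beside 16.9 to 23.02 in replicates 1, 3 and 4. With all mice limma called none of the following genes in IF against control. Mcm2 was at -0.72 (adjusted p = 0.111), Mcm5 at -0.52 (0.505), Cdc6 at -0.57 (0.548) and Ccne1 at -0.62 (0.483). Cdt1 was at -0.51 (adjusted p = 0.113), E2f1 at -0.57 (0.206) and Pcna at -0.39 (0.186).

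**Figure D3:**
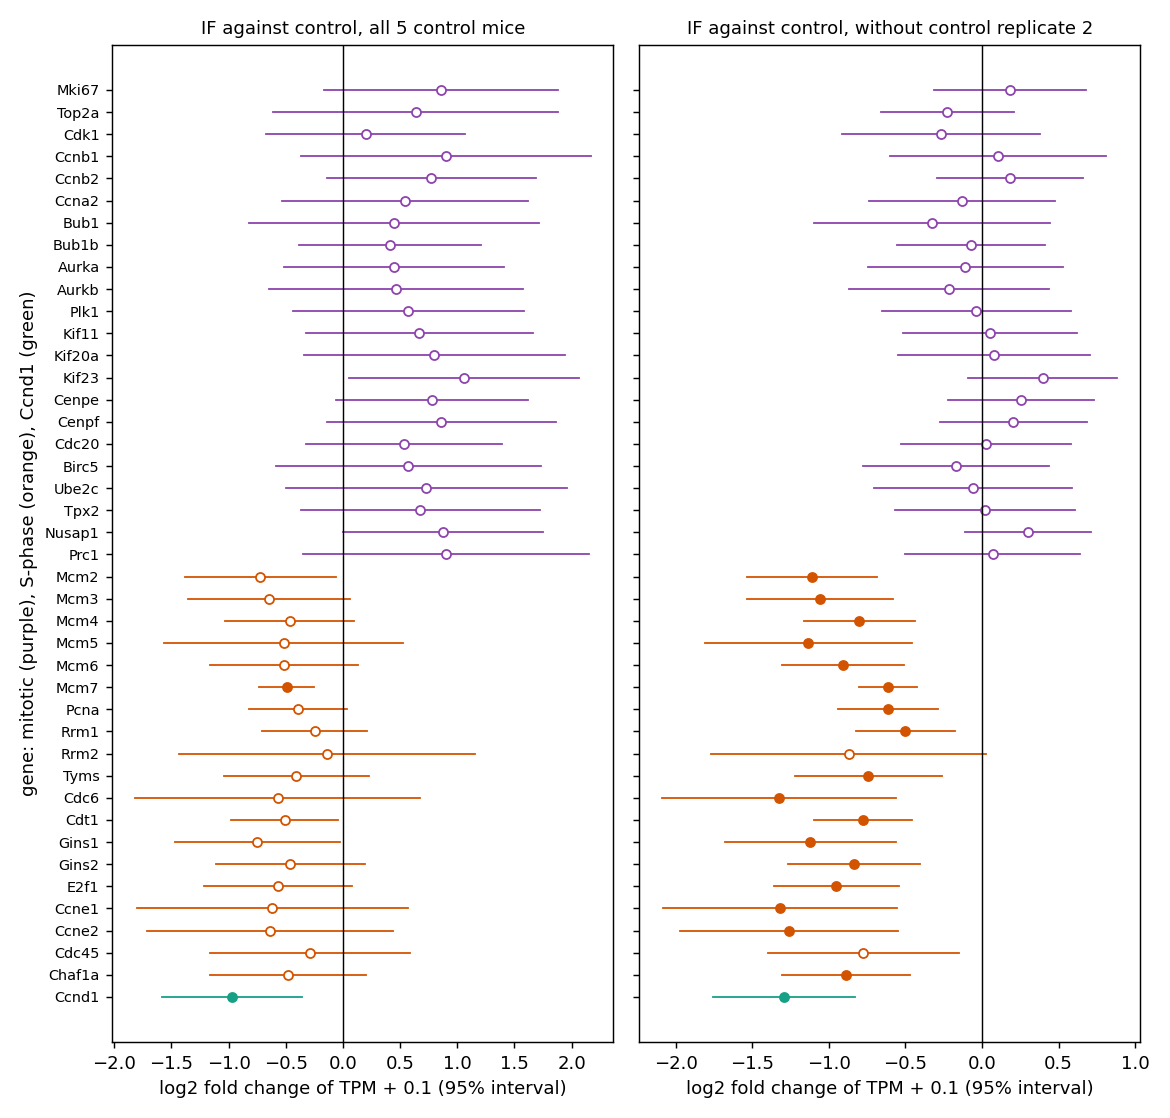
Log2 fold change of TPM + 0.1 in IF against control (horizontal axis, with 95% interval) for each of the 42 genes, with all mice (left) and without control replicate 2 (right), where filled points have an adjusted p under 0.05. On the right the mitotic genes lie around 0, with -0.33 to 0.40, and the S-phase genes lie from -1.32 to -0.50.

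Ccnd1, the D-type cyclin that starts the cycle by activating Cdk4 and Cdk6, was at 75.3, 27.8, 82.8, 81.8 and 101 TPM in the control, 39.95, 37.98, 17.8, 44.9 and 40.45 in the IF, 38.97, 33.6, 46.4, 29.5 and 39.7 in the PBMC and 28.04, 24.4, 20.2, 15.8 and 23.04 in the PBMC-hCG mice. Except for control replicate 2, every control mouse was above all mice given RU486, and IF replicate 3 was far below the other IF mice. Ccnd1 fell in IF against control (log2 fold change of -0.97, SE 0.292, adjusted p = 0.0221), in PBMC against control (log2 fold change of -0.87, SE 0.292, adjusted p = 0.0429) and in PBMC-hCG against control (log2 fold change of -1.63, SE 0.292, adjusted p = 0.000418). Without control replicate 2 these were -1.29 (adjusted p = 0.00031), -1.19 (adjusted p = 0.000756) and -1.95 (adjusted p = 4.77e-06). Leaving out IF replicate 3 gave -0.73 with an adjusted p of 0.062 for IF against control, and without control replicate 3, 4 or 5 the adjusted p was 0.0544 to 0.0593. In a fit of the IF and control mice alone it was 0.0959. The PBMC call was lost in 12 of the omissions of 1 mouse, control replicates 1, 3, 4 and 5 among them, at 0.0512 to 0.112, and at 0.0847 in a fit of its 2 groups alone. In PBMC-hCG against IF it was at -0.66 (95% interval -1.27 to -0.05), with an adjusted p of 0.119. Without control replicate 2, which enters only the shared estimate of the spread there, the adjusted p was 0.0356. Without IF replicate 3 the difference was -0.89, with an adjusted p of 0.0242.

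The relation of the S-phase to the mitotic level separated the controls from all other mice, control replicate 2 included. The geometric mean of the S-phase genes over that of the mitotic genes was 2.18, 3.93, 1.69, 1.84 and 1.52 in the control mice. It was 0.887, 0.994, 1.004, 1.085 and 0.746 in the IF, 0.917, 0.790, 0.919, 0.843 and 0.834 in the PBMC, and 0.903, 0.923, 0.819, 0.908 and 0.882 in the PBMC-hCG mice. This ratio is a description and was not tested. It sits at 1.52 or more in each control and at 1.085 or less in each mouse given RU486. Among the controls the ratio was highest in replicate 2, with a mitotic mean of 1.345, and lowest in replicate 5, with 23.43. The S-phase mean of control replicate 2, 5.29, was the lowest of the 20 mice. Its high ratio thus comes from mitotic levels lower still and does not mark a high S-phase level.

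**Figure D4:**
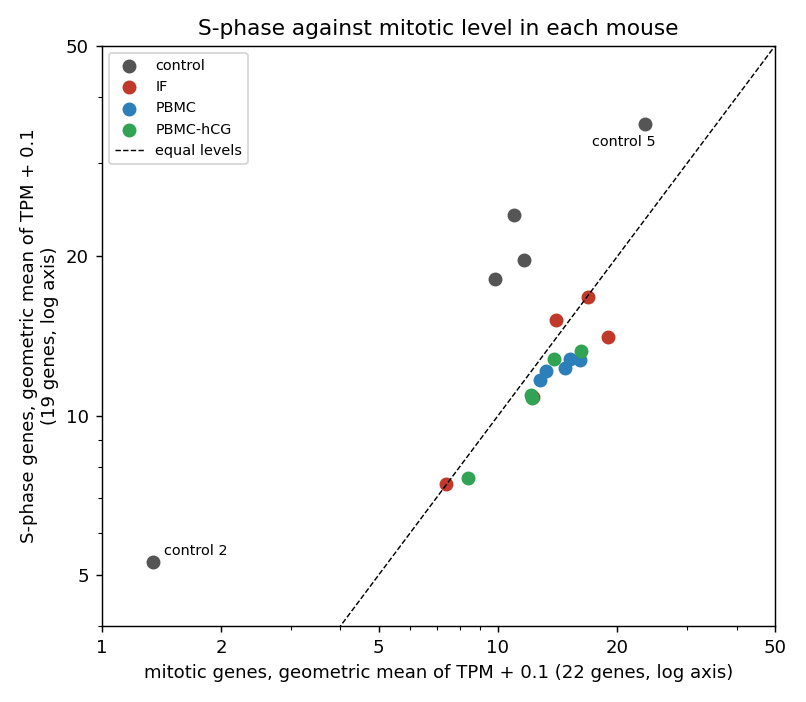
Geometric mean level of the 19 S-phase genes (vertical, log axis) against that of the 22 mitotic genes (horizontal, log axis) in each mouse, coloured by group, with a dashed line at equal levels. All 5 controls lie above the line, at ratios of 1.52 to 3.93, and the 15 mice given RU486 lie along it, at 0.746 to 1.085.

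For a single pair, chosen after the values were seen, Mcm2 over Mki67 was 3.99, 9.98, 3.50, 3.42 and 3.12 in the control mice. The ratio was 1.41, 1.41, 1.47, 1.75 and 1.12 in the IF mice. It lay between 1.15 and 1.57 in the PBMC and between 1.07 and 1.41 in the PBMC-hCG mice, so no mouse given RU486 reached the lowest control. In log2 terms the mean ratio differed from control by -1.60 in IF, -1.67 in PBMC and -1.74 in PBMC-hCG mice, and without control replicate 2 by -1.30, -1.37 and -1.44. Among the RU486 groups it differed by -0.06 for PBMC against IF and -0.14 for PBMC-hCG against IF. As the pair was picked for its values, no test is given.

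The log2 level of Mki67 was also added to limma as a covariate, with 1 slope for all groups. Mki67 is itself 1 of the 42 genes and was chosen for this after the ratio had been seen, so the fit restates the ratio and is given as a description only. Differences of the 19 S-phase genes at equal Mki67 had a median of -1.03 in IF against control, from -1.57 (Cdc6) to -0.61 (Rrm1), and medians of -1.04 in PBMC and -1.10 in PBMC-hCG against control. All 19 were past the threshold in each, where 13.6%, 12.6% and 18.4% of all genes were lower. The 21 mitotic genes besides Mki67 had medians of -0.18, -0.19 and -0.23, with 5, 5 and 7 lower and 0, 0 and 1 higher past the threshold.

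Within groups the genes moved together from mouse to mouse. After each group's mean was subtracted, the log2 level of Mki67 was related to each of the other 41 genes over 20 mice by permutation within groups. Pearson's r had a median of 0.979 for the mitotic genes (0.935 to 0.994) and 0.950 for the S-phase genes (0.798 to 0.968), against 0.032 over all other tested genes. Spearman's rho had medians of 0.932 and 0.851. The closest genes were Cenpf (r = 0.994, rho = 0.965, permutation p = 1e-05, the smallest that could be reached) and Prc1 (r = 0.993), and the loosest S-phase gene was Mcm7 (r = 0.798, rho = 0.662). For Ccnd1, r was 0.832 (permutation p = 0.0069) and rho 0.468 (permutation p = 0.073). Adjusted over the 41 relations, the largest p was 0.0069 for r and 0.073 for rho. The 2 mice farthest from the median of Mki67 were control replicates 2 and 5. Without them the median r was 0.926 for the mitotic and 0.872 for the S-phase genes, and Mcm7 dropped to 0.428. All values of a mouse share 1 library.

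The RU486 groups were compared to ask whether the cells, with or without hCG, moved these genes in mice that had all received RU486. Both comparisons with IF share the IF mice. In PBMC against IF, limma called 0 of 22 mitotic and 0 of 19 S-phase genes, with 0 of either class at an unadjusted p under 0.05. Over all genes 0.0% were called, with 1271 at an unadjusted p under 0.05. Mki67 differed by 0.10 (95% interval -0.93 to 1.12) and Mcm2 by 0.04 (95% interval -0.63 to 0.70). Without control replicate 2, which narrows the shared estimate of the spread, the intervals were -0.37 to 0.56 and -0.36 to 0.43. With all mice 4 of 22 mitotic and 14 of 19 S-phase intervals lay within 2-fold either way. Without control replicate 2 all 22 and 17 of 19 did.

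In PBMC-hCG against IF, 0 of 22 mitotic and 0 of 19 S-phase genes were called, and 0 of either class had an unadjusted p under 0.05. Over all genes 13.6% were called, which is 2544 genes, and that count moved widely when 1 mouse was omitted. It rose to 4080 without control replicate 2, which enters only the shared estimate of the spread. Omitting IF replicate 2, 4 or 5 left 8, 14 and 0 calls, and omitting replicate 2, 3, 4 or 5 of the PBMC-hCG group left 1, 0, 18 and 34. Where limma left 0, 4409 and 5211 genes had an unadjusted p under 0.05, beside 6547 with all mice. Median log2 fold changes were -0.15 for the mitotic and -0.17 for the S-phase genes, against 0.05 over all genes. The largest difference among the S-phase genes was that of Ccne1, at -0.60 (95% interval -1.78 to 0.59). Pcna had the smallest adjusted p of the class, 0.245, at -0.33 (95% interval -0.76 to 0.09). Mki67 was at -0.10 (95% interval -1.12 to 0.93) and Mcm2 at -0.23 (95% interval -0.89 to 0.43). Between PBMC-hCG and PBMC, 0.0107% of all genes were called, which is 2 genes, and none of the 42 was among them. Mki67 was at -0.19 (95% interval -1.22 to 0.83) and Mcm2 at -0.27 (95% interval -0.93 to 0.39). The PBMC mice were close to each other, with a mitotic geometric mean of 12.7 to 16.1 TPM and an S-phase mean of 11.7 to 12.8, while IF mice ran from 7.40 to 18.9 and from 7.43 to 16.7.

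Further genes of the same processes were counted by class, from lists that do not hold the 42. Of 52 other replication genes, 9 were called lower and 0 higher in IF against control, beside 8.53% of all genes lower and 13.4% higher, led by the origin-firing kinase Cdc7 (-0.88, adjusted p = 0.000336), the E2F target Cdca7 (-0.73, adjusted p = 0.00613) and the polymerase subunit Pold2 (-0.58, adjusted p = 0.000429). Without control replicate 2, 34 of 52 were lower, beside 12.4% of all genes, with a median of -0.63, led by Orc1 of the origin recognition complex (-1.60), Dtl (-1.47) and Uhrf1 (-1.28). Of 55 other mitotic genes 0 were called, with 2 at an unadjusted p under 0.05, and without that mouse 1 was (Cenpk, -0.69, lower). In PBMC-hCG against IF, 2 of 52 replication genes were called higher, Orc5 (0.41, adjusted p = 0.0287) and Gins4 (0.27, adjusted p = 0.0447), as were 2 of 55 mitotic genes, Cdc25b (0.30, adjusted p = 0.0307) and Pttg1 (0.23, adjusted p = 0.0335), beside 7.61% of all genes higher and 5.99% lower. None of the 22 calls that genes outside the 42 had in this comparison held over all omissions of 1 mouse. Each was lost in the 7 omissions named for the count over all genes, and Gins4 was called in 5 of 20 omissions.

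Upstream of these genes, some inhibitors of cyclin-dependent kinases were called, 2 of 6 tested in IF against control (both higher, beside 13.4% of all genes) and 3 of 6 in PBMC-hCG against IF (2 higher and 1 lower, beside 7.61% and 5.99%). Cdkn1a, which encodes p21, was at 12.4, 17.5, 12.9, 13.8 and 15.7 TPM in the control, 17.1, 21.4, 21.2, 28.8 and 32.8 in the IF, 17.2, 18.1, 22.8, 17.7 and 24.1 in the PBMC and 22.9, 12.2, 12.2, 15.5 and 14.8 in the PBMC-hCG mice. It rose in IF against control (log2 fold change 0.71, adjusted p = 0.00833) and was called lower in PBMC-hCG than in IF (-0.64, adjusted p = 0.0349). Cdkn1b, which encodes p27, was at 59.4, 91.1, 63.5, 56.7 and 56.5 TPM in the control, 82.2, 72.9, 100.1, 62.8 and 57.1 in the IF, 92.02, 90.4, 70.4, 90.4 and 59.9 in the PBMC and 84.6, 109, 112, 120.5 and 109 in the PBMC-hCG mice. Its change in IF against control was 0.19, adjusted p = 0.438, and it was called higher in PBMC-hCG than in IF (0.53, adjusted p = 0.0416). Cdkn1c, which encodes p57 and is a marker of decidualizing stroma, was at 46.3, 51.5, 55.1, 57.3 and 36.998 TPM in the control, 42.8, 34.1, 54.4, 39.01 and 32.4 in the IF, 46.6, 50.2, 48.3, 58.01 and 35.05 in the PBMC and 50.3, 60.9, 61.9, 67.6 and 63.5 in the PBMC-hCG mice. It was at -0.29, adjusted p = 0.17 in IF against control and was called higher in PBMC-hCG than in IF (0.60, adjusted p = 0.0287). The INK4 inhibitor Cdkn2b rose in IF against control (1.16, adjusted p = 0.0152). The 3 calls in PBMC-hCG against IF were lost without IF replicate 2, 4 or 5 or without PBMC-hCG replicate 2, 3, 4 or 5, with adjusted p-values of up to 0.119 for Cdkn1a, 0.137 for Cdkn1b and 0.0992 for Cdkn1c. Cdkn1b also lost its call without control replicate 3. The calls of Cdkn1a and Cdkn2b in IF against control held in all 20 omissions of 1 mouse. Without control replicate 2 the counts for IF against control were the same, with Cdkn1a at 0.79 and Cdkn2b at 1.54. Among the controls Cdkn1b was highest in replicate 2.

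**Figure D5:**
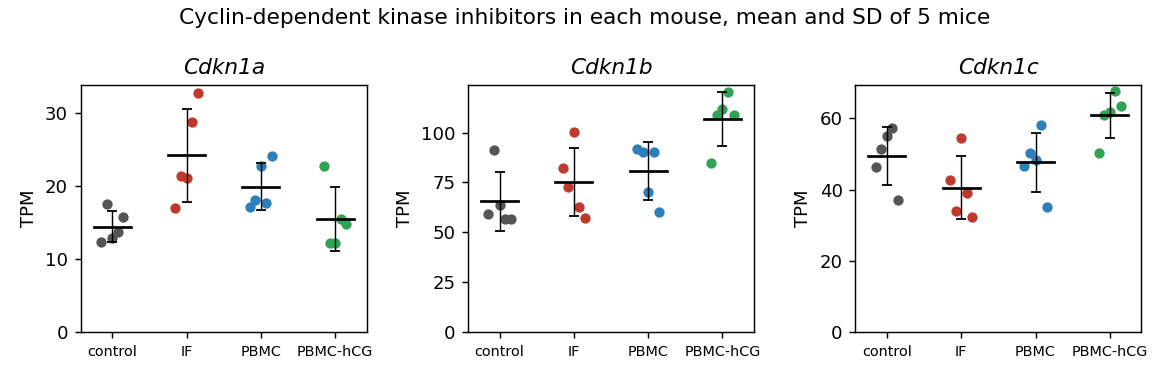
TPM (vertical axis, from 0) of 3 kinase inhibitor genes in each mouse, with points for mice and bars for the mean and SD of 5 mice. Cdkn1a lies at 17.1 to 32.8 in IF mice against 12.4 to 17.5 in control, and 4 of 5 PBMC-hCG mice exceed all IF mice for Cdkn1b.

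A list of 7 further cyclin and kinase genes held Ccng1 and Ccng2, for cyclins G1 and G2, whose names do not refer to the G1 phase. Of the 7, 3 were lower in IF against control, Ccnd2 (-0.54, adjusted p = 0.0317), Ccng1 (-0.34, adjusted p = 0.000294) and Ccnd3 (-0.31, adjusted p = 0.0494). Ccng2, which is linked to cell cycle exit, was higher (0.43, adjusted p = 0.0249). Of all genes 8.53% were lower and 13.4% higher. Of these Ccng1 was called in all 20 omissions of 1 mouse, Ccnd2 and Ccng2 in 15 and Ccnd3 in 4, and Ccnd2 lost its call without control replicate 1, 3 or 4 or IF replicate 2 or 3. In PBMC-hCG against IF, Ccng1 alone of these was called (0.28, adjusted p = 0.0258), not in the 7 omissions named above. Among 20 regulators of the RB, E2F and DREAM group, Myc was lower in IF than in control mice without overlap (-1.04, adjusted p = 5.14e-07), control replicate 2 included, at 128, 113, 108, 119.7 and 96.03 TPM in control and 54.7, 56.8, 60.03, 52.1 and 50.1 in IF mice. Mycn (1.37, adjusted p = 0.0245) and Rb1 (0.43, adjusted p = 0.00103) rose, Mycn not without control replicate 1, 3 or 4 or IF replicate 3. When PBMC-hCG was compared with IF, Tfdp2 (0.46, adjusted p = 0.0345) and Rbl2 (0.42, adjusted p = 0.0382) were called higher and E2f4 lower (-0.35, adjusted p = 0.0407), each again not in those 7 omissions. Foxm1, which drives mitotic genes, was at 0.53, adjusted p = 0.411 in IF against control and -0.23, adjusted p = 0.735 in PBMC-hCG against IF. Mybl2, its partner, was at -0.31, adjusted p = 0.59 and 0.02, adjusted p = 0.977, and without control replicate 2 it was called lower in IF (-0.72, adjusted p = 0.0464). That omission gave 2 higher and 4 lower of the 7 cyclin and kinase genes in IF against control. Of the regulators of the RB, E2F and DREAM group 2 were higher and 3 lower. Over all genes 14.4% were higher and 12.4% lower.

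Of 15 genes for the anaphase-promoting complex and for other cell cycle proteolysis, 2 were called higher and 2 lower in IF against control, beside 13.4% and 8.53% of all genes. They were Fzr1 (0.23, adjusted p = 0.0296), Anapc2 (0.22, adjusted p = 0.00116), Skp2, which marks p27 for destruction (-0.71, adjusted p = 0.0347), and Anapc11 (-0.23, adjusted p = 0.0361). None was called in PBMC-hCG against IF, where 2 had an unadjusted p under 0.05 in limma. Anapc2 held its call in all 20 omissions of 1 mouse, Fzr1 in 15, and Skp2 and Anapc11 in 14. Of 11 tested hormone-linked regulators, 5 rose and 2 fell in IF against control, beside the same shares, among them Cebpb (1.89, adjusted p = 0.00038), the progesterone receptor Pgr (1.71, adjusted p = 1.44e-07), Hbegf (0.94, adjusted p = 0.0197), Igf1 (-1.89, adjusted p = 2.33e-07) and Klf15 (-0.69, adjusted p = 0.0217). Klf15 lost its call without IF replicate 5, and Hbegf without that mouse or control replicate 1. Between PBMC-hCG and IF mice, Nr2f2 (0.47, adjusted p = 0.0407) and the glucocorticoid receptor Nr3c1 (0.39, adjusted p = 0.0258) were called higher, and Cebpb (-1.55, adjusted p = 0.0258) and Hbegf (-1.28, adjusted p = 0.0258) lower. All 4 calls were lost in the 7 omissions that ended nearly all calls in this comparison. Hand2, a stromal factor downstream of progesterone that restrains epithelial division, was at -0.26, adjusted p = 0.252 in IF against control and -0.26, adjusted p = 0.228 in PBMC-hCG against IF. After the same omission Fzr1 (0.16, adjusted p = 0.0569) and Anapc11 (-0.22, adjusted p = 0.054) were not called in IF, and 5 hormone-linked genes rose and 3 fell. In PBMC against IF, limma called 0 genes in every list named, with 0 to 3 genes of a list at an unadjusted p under 0.05.

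Markers of the tissues in the horn were counted in IF against control, where 13.4% of all genes were higher and 8.53% lower. Epithelial markers, present at a summed 779 to 1530 TPM over all mice, rose for 5 of 9 genes and fell for 2. Stromal markers, at 5579 to 11580, rose for 3 of 9 and fell for 2, and muscle markers, at 4806 to 11100, fell for 1 of 6. Endothelial markers rose for 5 of 5, and myeloid markers for 4 of 8. Of 7 T, B and NK cell markers, 5 red cell markers and 7 reference genes 0 were called, with 0 in each list at an unadjusted p under 0.05 in limma. Of 4 tested ovary and oviduct genes 1 rose and 1 fell. Blastocyst markers summed to 0.639 to 4.09 TPM, with 1 of 6 genes tested and not called. In PBMC-hCG against IF, 1 epithelial, 2 stromal and 1 endothelial marker were called higher, and 2 red cell markers and 1 ovary and oviduct gene lower, beside 7.61% and 5.99% of all genes, and none of these calls held over all omissions of 1 mouse. Over the omissions in IF against control, 2 to 6 epithelial and 0 to 4 myeloid markers were called higher. With control replicate 2 left out, 6 epithelial markers rose and 2 fell in IF against control, 3 muscle markers fell, 1 myeloid marker rose and 1 reference gene fell. The part of the mix of tissues in the S-phase result was not tested.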

How the data were processed

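RNA-seq of uterine horns from 20 mice, with 1 library per mouse, was analysed in 4 groups of 5 set by the sample labels. The authors deposited transcript abundances in TPM after trimming with Trimmomatic, mapping to mm10 with HISAT2 and assembly with StringTie, as named in the study's methods and the submitters' processing notes, which give no versions. TPM totals were 999989 to 999999 in every library, so depth is unknown and no counting error is given. The study tested counts with edgeR, which TPM does not allow. Here log2(TPM + 0.1) of the 18706 genes above 0 TPM in all 20 libraries was fitted for all groups together with limma 3.58.1 in R 4.3.3 (variance trend), with Benjamini-Hochberg adjustment within each comparison over all tested genes and calls at an adjusted p under 0.05. Low genes have their fold changes drawn toward 0 by the pseudocount. Figures were drawn with matplotlib 3.10.9 in Python 3.11.15.

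The members and lists were chosen with earlier results of these data known. Values by mouse are given for Mki67, Cdk1, Ccnb1, Mcm2, Mcm5, Pcna, Cdc6, Cdt1, Ccne1, E2f1, Cdc45, Ccnd1 and, in IF against control and PBMC-hCG against IF, for up to 5 rises and 5 falls among members called, which adds Mcm7, every other member has a level or a change, and other lists have their counts with up to 3 rises and 3 falls. Promoters came from RefSeq (GRCm38.p6). Alternatives were pseudocounts of 0.01 and 1, a mean of at least 1 TPM, no filter, quantile normalization, median centring, 2-group fits, a replicate block, each mouse left out, and, after the data were seen, control replicates 2 and 5 left out and a Mki67 covariate. The labels name no batch.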

Additional observations from a re-analysis of the deposited data

Results flagged for a closer look

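Within groups of 5 mice, a single animal stood away from the other 4 in 18 of 168 tested sets of values, where about 8.4 are expected by chance from 1 in 20 (gap to the nearest mouse as a share of the group's range of log2 values, threshold 0.71). Control replicate 2 was the lowest in 13 of these, 8 mitotic genes, 4 S-phase genes and Ccnd1. The shares were 0.793 for Mki67, 0.778 for Top2a, 0.790 for Ccnb2, 0.715 for Ccna2, 0.747 for Cenpf, 0.728 for Birc5, 0.836 for Nusap1, 0.763 for Prc1, 0.782 for Mcm3, 0.725 for Mcm4, 0.714 for Mcm6, 0.772 for Gins1 and 0.771 for Ccnd1. IF replicate 3 was low for Ccnd1 (0.819), and PBMC-hCG replicate 4 was low for Ccna2 (0.821) and Mcm2 (0.739). In the PBMC group, replicate 4 was high for Mcm6 (0.761) and replicate 1 low for Rrm2 (0.722). These 42 genes vary together between mice, so the flags are not independent of each other.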

How the results depend on the processing

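Counts of called S-phase genes rested on control replicate 2. Over the omissions of 1 mouse they ran from 1 to 17 in IF against control, from 1 to 17 in PBMC against control and from 2 to 18 in PBMC-hCG against control, with 17, 17 and 18 reached without control replicate 2. Without IF replicate 3 the last count was 6. Mitotic counts ran from 0 to 1, from 0 to 3 and from 0 to 1, above 0 without control replicate 5, where Kif23 in IF, Kif23, Cenpe and Cenpf in PBMC and Cenpe in PBMC-hCG mice were called higher. Without that mouse 2269, 1988 and 3024 of all 18706 genes were called higher. With control replicates 2 and 5 left out, the S-phase counts were 14, 12 and 17, beside 2215, 1731 and 2855 of all 18706 genes called lower. In PBMC against control 3 of 22 mitotic genes were then higher, beside 2143 of all 18706 genes. With the Mki67 covariate, 19 S-phase genes were called in each of the control comparisons, and 5, 5 and 8 mitotic genes, and 1 S-phase gene (Pcna, -0.30) in PBMC-hCG against IF. That fit restates the ratio of the 2 classes and is a description, so its counts are no test of the S-phase result. In PBMC-hCG against control, 5 S-phase genes in place of 3 were called with a mean of at least 1 TPM, quantile normalization or median centring. Calls whose sign differed from the fit with all mice arose with the Mki67 covariate. In IF against control they were Cdk1 at -0.48, Ccna2 at -0.34, Bub1 at -0.58, Aurkb at -0.44 and Birc5 at -0.38. In PBMC against control they were Cdk1 at -0.48, Ccna2 at -0.35, Bub1 at -0.62, Aurkb at -0.57 and Birc5 at -0.38. In PBMC-hCG against control they were Ccna2 at -0.44, Bub1 at -0.64, Aurkb at -0.55, Plk1 at -0.33, Birc5 at -0.43 and Prc1 at -0.27. These signs hold at equal Mki67, which with all mice was itself at 0.86 in IF against control, without being called. Cdk1, Ccna2, Bub1, Aurkb and Birc5 were at 0.20 to 0.57 there. The cause was not tested. Over all genes, calls in PBMC-hCG against IF went from 2544 to between 0 and 34 in 7 of the omissions of 1 mouse. Mice with the same replicate number were not treated as paired in the main fit. Their 30 correlations ran from -0.247 to 0.457, with 8 above 0.1. The replicate 5 mice of control, IF and PBMC had the highest, 0.272 to 0.457. Mice with different numbers were not set beside them, so whether equal numbers mark shared handling was not tested. A replicate block left the counts at 1, 1 and 3 S-phase and 0 mitotic genes. With it Ccnd1 in PBMC against control missed the threshold, with an adjusted p of 0.0518 in limma. With TPM alone, depth is unknown, and with all mice the 95% intervals reached a median of 1.02 (log2) to either side for mitotic genes and 0.66 for S-phase genes in IF against control.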
